A study of Mus musculus with 6 samples.

Results

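Endothelial marker genes are transcripts enriched in the cells that line blood vessels. In this set 33 such genes were chosen by name as a list of mouse symbols, and each was found by the Entrez identifier that forms the name of its probe set. Of the 33, 32 had a probe set on the array, out of 16492 gene probe sets in all, and Ly6c1 had none under this rule. Expression was measured in quadriceps muscle of 3 mice heterozygous for nebulin (nebulin +/-, with 1 allele) and 3 wild-type mice (nebulin +/+, with 2 alleles), with 1 Affymetrix array per mouse. Nebulin, the product of Neb, spans the thin filament of skeletal muscle, and its loss in people causes a form of nemaline myopathy, a disease of muscle weakness. The labels name 6 separate mice and give no age, sex, strain, allele design or treatment beyond the nebulin genotype.

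Skeletal muscle is supplied by a dense capillary bed whose endothelial cells touch the muscle fibres. These cells form the barrier that fatty acids, water and hormones cross, and they respond to vascular endothelial growth factor (VEGF), to angiopoietins and to blood flow. Their identity is set by transcription factors of the ETS and SOX families, and their tightness by adhesion and tight junction proteins. Many of the markers are made by other cells as well: von Willebrand factor by platelets, Aqp1 by red cell precursors, and Cav1 by fat and smooth muscle cells. In RNA from whole muscle, fewer endothelial cells and less RNA per cell cannot be told apart.

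Quadriceps gave the levels of a muscle: Acta1 (skeletal actin) read 14.81 on every array and Ckm (muscle creatine kinase) 14.64 to 14.66, both at the bright end of the scale. All arrays had the same distribution of log2 values, running from 5.56 to 14.81 around a median of 7.23, and arrays of 1 genotype correlated at r = 0.9965 to 0.9977. Neb itself measured 12.08, 11.73 and 11.94 in heterozygous mice 1, 2 and 3 and 12.17, 12.09 and 12.16 in wild-type mice 1, 2 and 3. All heterozygous mice lay below all wild-type mice, though heterozygous mouse 1 (12.08) was close to wild-type mouse 2 (12.09). The log2 difference of Neb, -0.22 ± 0.08 (SE), did not pass the test (limma adjusted p = 0.161). It passed in 1 of 6 fits with a mouse left out (without heterozygous mouse 1, limma adjusted p = 0.0399). The labels do not place its probes against the altered stretch of the gene, so these values cannot check the genotypes.

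Testing was limited to the 11544 probe sets whose 6-array mean exceeded 6.74, the 30th percentile. Of the 32 endothelial genes 31 were tested. Erg, an ETS transcription factor that maintains endothelial identity, fell below that level and was not tested: it read 6.60, 6.63 and 6.70 in heterozygous and 6.73, 6.70 and 6.67 in wild-type mice. The dimmest member above the limit was Clec14a, with a mean of 6.77 over all mice against 6.67 for Erg. Differences are given as heterozygous minus wild type on the log2 scale with limma's SE, and a call is a Benjamini-Hochberg adjusted p under 0.05 over all tested probe sets.

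Gpihbp1 and Aqp1 were higher and Egfl7 was lower in heterozygous muscle, by 1.26-fold, 1.20-fold and 1.19-fold (n = 3 mice each). These 3 were the calls among the 31 tested genes, 9.68% against a background of 3.11% of all tested probe sets called in either direction (1.53% higher and 1.58% lower). The other 28 did not pass. The members and the lists below were chosen with earlier results of these data known. Their shares against the background, here and below, are therefore descriptions and not tests. Of the 31 differences 16 were positive and 15 negative, from -0.39 to 0.33 around a median of 0.00, the same as the median over all tested probe sets. The median size of a difference, whatever its sign, was 0.11, against 0.05 over all tested probe sets. Both genotypes were fully separated at 12 members, 38.7% against a background of 26.3%: 8 had every heterozygous mouse above every wild-type mouse and 4 had every heterozygous mouse below.

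**Figure D1:**
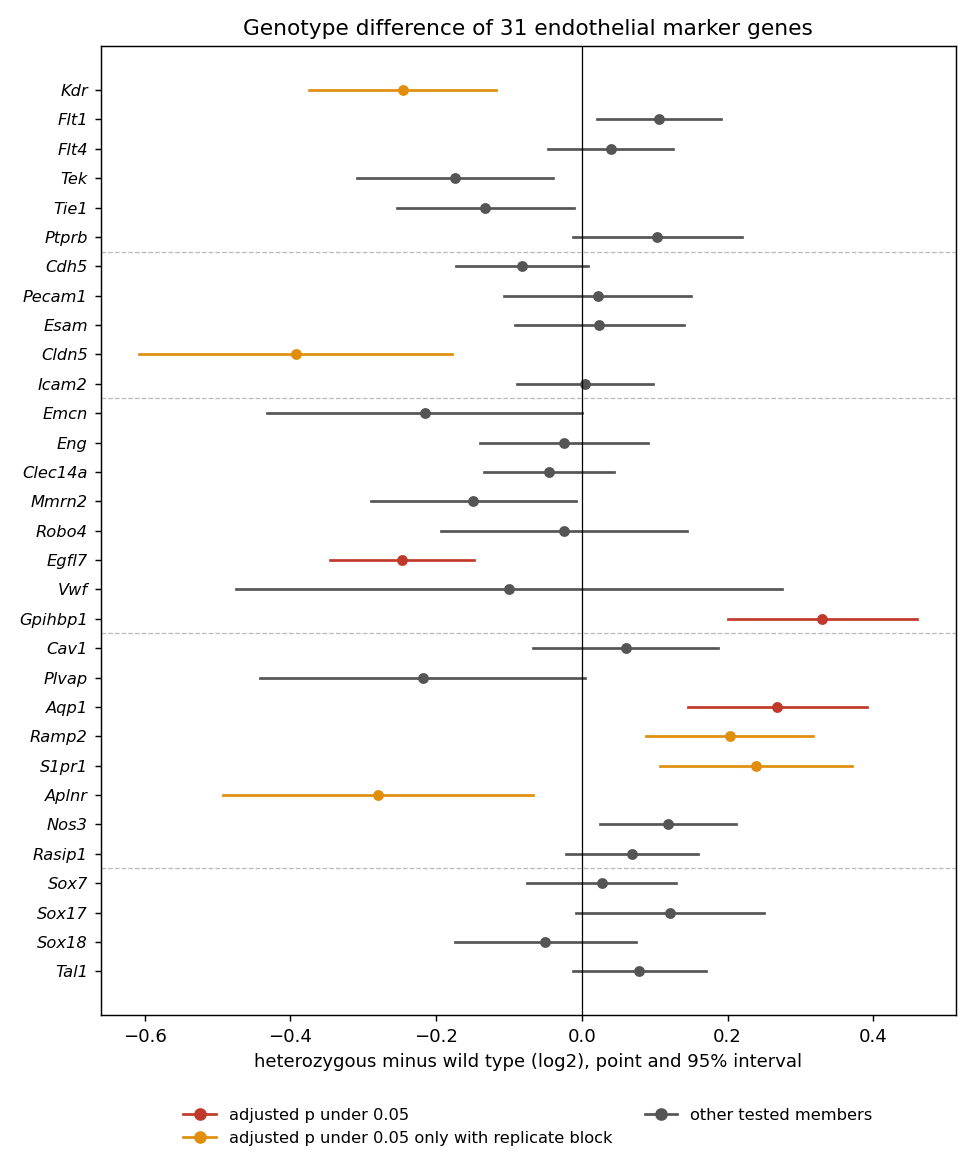
Heterozygous minus wild-type difference on the log2 scale (x axis) for the 31 tested endothelial genes, grouped by role with dashed lines between the groups; points are differences and bars are limma's 95% confidence intervals. Gpihbp1 (0.33) and Aqp1 (0.27) lie to the right of 0 and Egfl7 (-0.25) to the left, and Cldn5 has the lowest value at -0.39 with a wide interval.

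Mice of both genotypes carry the numbers 1 to 3, and same-numbered mice deviated together from their genotype means, although the labels do not say what a number stands for. With the number as a block in the limma fit, 8 members passed, 25.8% against a background of 4.95% (2.27% higher and 2.69% lower). These were the 3 above and Ramp2 and S1pr1 (higher) and Kdr, Cldn5 and Aplnr (lower). Such values are given below as blocked adjusted p.

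The gene of the fall, Egfl7, lies on mouse chromosome 2 of build GRCm38.p6, and the endothelial microRNA miR-126 is encoded inside it. The mature miR-126a-3p lies on the same strand as Egfl7, at chr2:26591402-26591423 within chr2:26581083-26592682, and is shown because it shares its host transcript; its own level was not analysed here. Its seed, bases 2 to 8, is in capitals.
mmu-miR-126a-3p: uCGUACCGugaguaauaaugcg

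Promoters of the called genes were taken from RefSeq (GRCm38.p6), 250 bases before to 50 after a transcription start, and 3 were listed for Egfl7, 1 for Aqp1 and none for Gpihbp1. They are shown because ETS factors act at many endothelial promoters. Capitals mark AGGAAG or its reverse complement CTTCCT, the ETS core letters searched. Such a match is a description of letters and not a binding site. At least 1 match occurred in 35.4% of all 32851 promoters in the table. Of the Egfl7 promoters, the upstream one (chr2:26580833-26581132, plus strand) held 3 matches and the middle one (chr2:26583615-26583914, plus strand) held 2, while the third held 0.
Egfl7 upstream promoter: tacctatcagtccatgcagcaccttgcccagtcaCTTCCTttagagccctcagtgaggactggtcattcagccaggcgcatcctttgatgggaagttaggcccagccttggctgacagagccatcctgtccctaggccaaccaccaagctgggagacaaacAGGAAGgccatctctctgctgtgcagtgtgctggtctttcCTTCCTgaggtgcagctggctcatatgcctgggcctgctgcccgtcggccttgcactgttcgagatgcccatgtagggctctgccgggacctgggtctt
Egfl7 middle promoter: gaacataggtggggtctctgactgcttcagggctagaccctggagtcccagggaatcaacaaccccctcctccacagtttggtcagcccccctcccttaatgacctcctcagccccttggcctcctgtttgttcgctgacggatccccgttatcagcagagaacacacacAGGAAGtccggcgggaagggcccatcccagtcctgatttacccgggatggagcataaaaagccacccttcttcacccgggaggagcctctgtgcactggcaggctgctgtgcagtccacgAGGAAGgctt
The Aqp1 promoter (chr6:55336049-55336348, plus strand) held 1 match, which starts 29 bases before the transcription start.
Aqp1 promoter: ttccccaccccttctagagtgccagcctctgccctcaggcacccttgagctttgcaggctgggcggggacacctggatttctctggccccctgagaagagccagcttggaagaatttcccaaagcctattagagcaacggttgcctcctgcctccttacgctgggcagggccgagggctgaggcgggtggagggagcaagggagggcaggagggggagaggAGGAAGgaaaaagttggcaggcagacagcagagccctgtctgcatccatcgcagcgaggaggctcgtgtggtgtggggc
The KLF letters CCACCC, in either strand, occurred 2 times in the Aqp1 promoter and 1 time in the middle Egfl7 promoter, and 31.5% of all promoters held them. The GATA letters AGATAA and the SOX letters ACAATG, again on both strands, occurred in none of these 4 promoters and in 11.2% and 12.6% of all promoters.

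Receptor tyrosine kinases receive growth factor signals at the endothelial surface. None of 6 genes (with the phosphatase gene Ptprb) passed in the unpaired fit of all 6 mice, against 3.11% of all tested probe sets. With so low a background, the lack of a call does not set so short a list apart. Kdr encodes VEGF receptor 2, the main signalling receptor for VEGF-A. It measured 8.72, 8.54 and 8.62 in heterozygous mice 1 to 3 and 8.94, 8.81 and 8.85 in wild-type mice 1 to 3. All heterozygous mice lay below all wild-type mice, with a difference of -0.25 ± 0.06 (limma adjusted p = 0.0575, blocked adjusted p = 0.0174). It also passed with array weights (limma adjusted p = 0.0402), with a variance trend and robust variance estimates (0.0481) and without heterozygous mouse 1 (0.0258).

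Flt1 encodes VEGF receptor 1, which binds VEGF-A and signals weakly. Flt1 read 8.20, 8.14 and 8.18 in heterozygous and 8.08, 8.10 and 8.03 in wild-type mice, with no overlap and a difference of 0.11 ± 0.04 that did not pass (limma adjusted p = 0.161, blocked 0.166). The lymphatic receptor gene Flt4 differed by 0.04 ± 0.04. Kdr and Flt1 thus had differences of opposite sign, neither of which passed in the unpaired fit of all 6 mice.

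Tek, the angiopoietin receptor, measured 8.40, 8.20 and 8.26 in heterozygous and 8.53, 8.44 and 8.41 in wild-type mice. Its groups were separated by under 0.01, and the difference of -0.17 ± 0.06 did not pass (limma adjusted p = 0.144, blocked 0.0552). Without heterozygous mouse 1 it was -0.23 and passed (limma adjusted p = 0.0460). Tie1, the partner of the angiopoietin receptor, differed by -0.13 ± 0.05 (limma adjusted p = 0.209), and Ptprb, the phosphatase that acts on that receptor, by 0.10 ± 0.05 (limma adjusted p = 0.290).

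Junction and adhesion genes were close to 0 apart from Cldn5. None of the 5 passed in the unpaired fit of all 6 mice, against 3.11% of all tested probe sets. Cldn5 encodes claudin 5, the main tight junction protein of endothelium. It read 8.07, 7.91 and 7.93 in heterozygous mice and 8.55, 8.39 and 8.15 in wild-type mice. The groups did not overlap, but wild-type mouse 3 lay nearer to heterozygous mouse 1 than to the other wild-type mice. The difference was -0.39 ± 0.09 (limma adjusted p = 0.0643, blocked 0.0184), and without wild-type mouse 3 it was -0.50 and passed (limma adjusted p = 0.0262), as it did with array weights (0.0392).

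Cdh5 encodes VE-cadherin, the adherens junction protein of endothelium. Cdh5 measured 7.80, 7.70 and 7.74 in heterozygous and 7.85, 7.80 and 7.84 in wild-type mice, and heterozygous mouse 1 reached the lowest wild-type mouse (difference -0.08 ± 0.04, limma adjusted p = 0.282). Pecam1 and Icam2, surface adhesion molecules, and Esam, a junctional one, had differences of 0.02 ± 0.06, 0.00 ± 0.04 and 0.02 ± 0.05. The 95% interval of the Pecam1 difference ran from -0.11 to 0.15. That of Esam ran from -0.09 to 0.14, and that of Icam2 from -0.09 to 0.10.

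Of the surface and secreted glycoproteins 8 were tested, of which 1 rose, 1 fell and 6 did not pass, 25.0% called against 3.11% of all tested probe sets, and 7 of the 8 differences were negative. Gpihbp1 anchors lipoprotein lipase to the capillary wall, where the enzyme frees fatty acids from circulating lipoproteins. It measured 10.00, 10.12 and 10.05 in heterozygous mice and 9.63, 9.83 and 9.73 in wild-type mice. The lowest heterozygous mouse stood above the highest wild-type mouse. The difference was 0.33 ± 0.06, 1.26-fold with a 95% interval of 1.15-fold to 1.38-fold (limma adjusted p = 0.0253, blocked 0.00780). An exact permutation test (two-sided) of Gpihbp1 alone gave p = 0.1, and no lower p can come from 3 mice per genotype.

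Egfl7 encodes a secreted protein that endothelial cells lay down during vessel formation. It measured 8.94, 8.89 and 8.81 in heterozygous and 9.15, 9.10 and 9.12 in wild-type mice. Every heterozygous mouse lay below every wild-type mouse, and the wild-type mice were close together (SD 0.03 against 0.07 in heterozygous mice). Egfl7 fell by 0.25 ± 0.04, 1.19-fold with a 95% interval of 1.11-fold to 1.27-fold (limma adjusted p = 0.0271, blocked 0.0222), and its exact permutation p was also 0.1.

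The other glycoprotein genes did not pass with or without the block. Emcn, an endothelial sialomucin, differed by -0.22 ± 0.09, which came to -0.10 without wild-type mouse 1. Mmrn2, a matrix protein that binds Clec14a, differed by -0.15 ± 0.06, and Clec14a, its lectin-like receptor, by -0.04 ± 0.04. Eng, a co-receptor of the TGF-beta family, and Robo4, a guidance receptor of vessels, both differed by -0.02, with SE of 0.05 and 0.07. Vwf, the clotting factor carrier stored by endothelium, varied widely: it read 8.40, 7.76 and 7.89 in heterozygous and 8.32, 8.15 and 7.88 in wild-type mice, and its 95% interval ran from -0.48 to 0.27.

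Of 8 genes of transport and signalling tested, Aqp1 rose and 7 did not pass, 12.5% called against 3.11%. In 5 of the 8 every heterozygous mouse was above every wild-type mouse, 62.5% against 13.1% of all tested probe sets in that direction. Aqp1 encodes aquaporin 1, the water channel of capillary endothelium. It measured 11.78, 11.65 and 11.70 in heterozygous and 11.51, 11.46 and 11.35 in wild-type mice. The groups were separated, with a difference of 0.27 ± 0.05, 1.20-fold with a 95% interval of 1.11-fold to 1.31-fold (limma adjusted p = 0.0369, blocked 0.0237), and an exact permutation p of 0.1.

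S1pr1 is the sphingosine 1-phosphate receptor that stabilises endothelial junctions. It read 8.35, 8.43 and 8.56 in heterozygous and 8.22, 8.15 and 8.26 in wild-type mice, without overlap. The difference was 0.24 ± 0.06 (limma adjusted p = 0.0656, blocked 0.0362), and it passed without heterozygous mouse 1 (0.0305) and with array weights (0.0355). Ramp2, which with the receptor Calcrl forms the adrenomedullin receptor, read 8.59, 8.68 and 8.69 in heterozygous and 8.36, 8.50 and 8.49 in wild-type mice. The groups were again separated, by a difference of 0.20 ± 0.05 (limma adjusted p = 0.0678, blocked 0.0288) that passed without heterozygous mouse 1 (0.0462).

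Aplnr, the apelin receptor, had values on the other side of 0. It measured 7.85, 7.53 and 7.49 in heterozygous and 8.0, 7.85 and 7.85 in wild-type mice, and heterozygous mouse 1 reached the lower wild-type mice. The difference was -0.28 ± 0.09 (limma adjusted p = 0.140, blocked 0.0314), and without heterozygous mouse 1 it was -0.39 and passed (limma adjusted p = 0.0121).

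The other 4 of these genes did not pass by either fit. Nos3, the endothelial nitric oxide synthase, read 7.83, 7.71 and 7.78 in heterozygous and 7.65, 7.65 and 7.66 in wild-type mice, with a difference of 0.12 ± 0.04 (limma adjusted p = 0.150). Rasip1, a Ras-interacting protein needed for vessel lumens, differed by 0.07 ± 0.04, and Cav1, the caveolar coat protein, by 0.06 ± 0.06. Plvap, which forms the diaphragms of caveolae and fenestrae, differed by -0.22 ± 0.10 (limma adjusted p = 0.252).

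**Figure D2:**
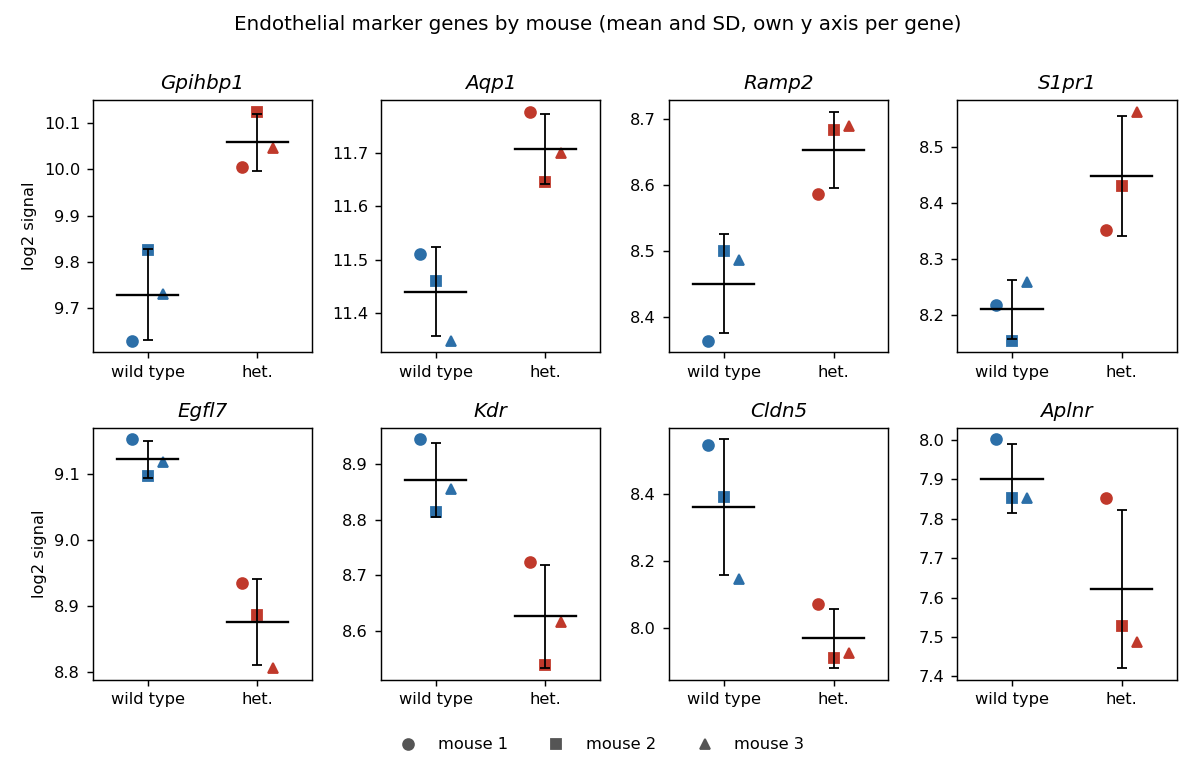
Log2 signal (y axis, a separate scale for each gene) of 8 endothelial genes in 3 wild-type (blue) and 3 heterozygous (red) mice; symbols mark the mouse number, horizontal lines the mean and error bars the SD. Gpihbp1, Aqp1, Ramp2 and S1pr1 are higher and Egfl7, Kdr and Cldn5 lower in every heterozygous mouse, and for Aplnr heterozygous mouse 1 (7.85) reaches the wild-type range.

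None of the 4 transcription factor genes tested passed with or without the block, against 4.95% and 3.11% of all tested probe sets. Their differences lay between -0.05 and 0.12. Sox17, an arterial factor, read 7.79, 7.77 and 7.74 in heterozygous and 7.72, 7.51 and 7.70 in wild-type mice, without overlap (difference 0.12 ± 0.06, limma adjusted p = 0.267). Without wild-type mouse 2, which was the low one, the difference was 0.06. The related factor genes Sox7 and Sox18 differed by 0.03 ± 0.04 and -0.05 ± 0.05. Tal1, a factor of blood and endothelial development, read 6.89, 6.81 and 6.84 in heterozygous and 6.73, 6.76 and 6.81 in wild-type mice (difference 0.08 ± 0.04, limma adjusted p = 0.302), with heterozygous mouse 2 inside the wild-type range.

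The fit was repeated with 1 mouse left out at a time. These fits hold fewer mice, so a call lost in them does not show that it rested on a single animal. With all 6 mice 3.11% of all tested probe sets passed. Of all tested probe sets 4.36%, 1.05% and 0.728% passed without heterozygous mouse 1, 2 and 3, and 0.84%, 0.892% and 1.24% without wild-type mouse 1, 2 and 3. Gpihbp1 passed in 2 of these 6 fits (without heterozygous mouse 1 or wild-type mouse 2), with adjusted p from 0.0240 to 0.0845. Egfl7 passed in 1 (without heterozygous mouse 1), with adjusted p from 0.0194 to 0.0910. Aqp1 passed in 0 of them, with adjusted p from 0.0577 to 0.113. The differences kept their sign and lay between 0.28 and 0.38 for Gpihbp1, between -0.28 and -0.21 for Egfl7 and between 0.22 and 0.30 for Aqp1. With array weights 3 members rose and 3 fell (4.18% of all tested probe sets passed). With a variance trend and robust variance estimates 2 rose and 2 fell (3.39%).

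Within each genotype the endothelial genes varied together between mice. Heterozygous mouse 1 was the highest of its genotype at 22 of the 31 genes, 71.0% against 34.2% of all tested probe sets, and heterozygous mouse 2 the lowest at 21, 67.7% against 33.1%. Wild-type mouse 1 was the highest of its genotype at 19, 61.3% against 32.1%. At 16 genes both mice numbered 1 were the highest of their genotype, 51.6% against 13.1% of all tested probe sets, among them Kdr, Tek, Tie1, Cdh5, Cldn5, Egfl7, Plvap, Vwf and Aqp1. The mean log2 signal of the 31 genes was 8.28, 8.18 and 8.22 in heterozygous and 8.29, 8.24 and 8.21 in wild-type mice 1 to 3. These means overlapped between the genotypes.

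Other lists varied in whether they were highest in these mice. Of 13 pericyte and smooth muscle genes, 9 were highest in heterozygous mouse 1 within its genotype and 9 in wild-type mouse 1. Of 9 muscle fibre genes, the corresponding counts were 7 and 6, with ties counted for mouse 1. Acta1 and Pvalb read the same in all mice and so entered both counts, and Tnnt3 tied between wild-type mice 1 and 3. Of 29 other endothelial genes they were 21 and 13. Of 6 leukocyte genes, 0 were highest in heterozygous mouse 1 and 4 in wild-type mouse 1. Of 9 fibroblast genes the counts were 1 and 4, and of 3 red cell and platelet genes 0 and 0. The part of these cells in the endothelial values was not tested.

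**Figure D3:**
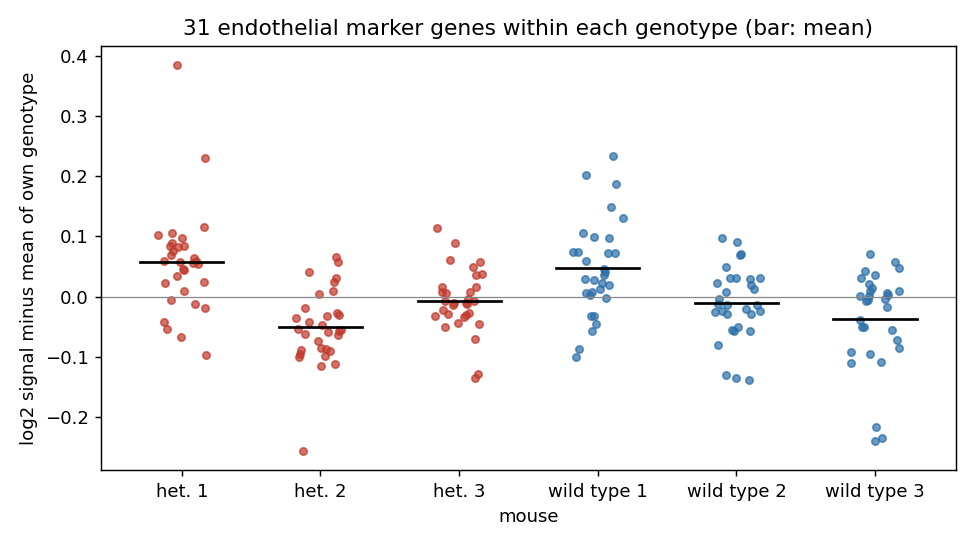
Log2 signal of each of the 31 tested endothelial genes minus the mean of the mouse's own genotype (y axis), by mouse (x axis); each point is a gene and the black bar the mean. The mean deviations were 0.06, -0.05 and -0.01 in heterozygous mice 1 to 3 and 0.05, -0.01 and -0.04 in wild-type mice 1 to 3.

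The VEGF, angiopoietin and Notch partners of these receptors gave 0 calls among 27 tested, against a background of 3.11% (limma), with a median difference of 0.03. Of the 27, 5 had an unadjusted limma p under 0.05, against 2364 of all 11544 tested probe sets. Pgf, a ligand of VEGF receptor 1, measured 7.54, 7.65 and 7.52 in heterozygous and 7.29, 7.46 and 7.33 in wild-type mice, without overlap (difference 0.21 ± 0.05, limma adjusted p = 0.0786, blocked 0.0274). Vegfa, the main ligand of VEGF receptor 2, read 8.78, 8.75 and 8.83 against 8.94, 8.88 and 8.95. All heterozygous mice were below all wild-type mice, with a difference of -0.14 ± 0.04 that did not pass (limma adjusted p = 0.0982, blocked 0.0759).

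Of 29 other endothelial genes tested 2 rose, 0 fell and 27 did not pass, 6.90% against the background of 3.11%, and 19 of the 29 differences were negative. Klf2, a transcription factor induced by shear stress in endothelium, measured 9.77, 9.75 and 9.47 in heterozygous and 8.32, 8.79 and 9.01 in wild-type mice. Klf2 was 1.94-fold higher (difference 0.95 ± 0.16, limma adjusted p = 0.0228) and passed in 3 of the 6 fits with a mouse left out. Klf4, a related factor that is also an immediate early gene of many cells, rose by 0.54 ± 0.11 (limma adjusted p = 0.0354) and passed in 2 of them. Both genes are made by cells other than endothelium. The differences of Thbd and Nos3, which Klf2 is known to induce in endothelium, were 0.15 and 0.12 and did not pass. Hhex, an endothelial homeobox factor, differed by -0.23 ± 0.06 (limma adjusted p = 0.0662, blocked 0.0302) and Adgrl4, an adhesion receptor of endothelium, by -0.21 ± 0.06 (limma adjusted p = 0.0827, blocked 0.0439).

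In the list of arterial, venous and capillary genes 2 rose (Timp4 and Kitl), 1 fell (Cd36) and 14 of 17 did not pass, 17.6% against 3.11%, with a median difference of -0.06. Several of these genes act with Gpihbp1 in fatty acid uptake by muscle capillaries. Lpl, the lipase that Gpihbp1 binds, is made by the muscle fibres and fat cells and read 11.90, 11.79 and 11.77 in heterozygous and 12.08, 11.91 and 12.08 in wild-type mice. Its groups were separated by under 0.01, with a difference of -0.20 ± 0.06 that did not pass (limma adjusted p = 0.102, blocked 0.0605).

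The fatty acid transporter gene Cd36, expressed by capillary endothelium, muscle fibres and fat cells, read 10.34, 10.03 and 10.17 in heterozygous and 10.81, 10.54 and 10.63 in wild-type mice. Cd36 fell by 0.48 ± 0.09 (limma adjusted p = 0.0317), and passed in 1 of the 6 fits with a mouse left out. Fabp4, a fatty acid carrier of capillary endothelium and fat cells, read 11.17, 11.05 and 11.14 against 11.44, 11.31 and 11.27. It was lower in every heterozygous mouse and passed with the block (difference -0.22 ± 0.05, limma adjusted p = 0.0676, blocked 0.0364). Gpihbp1 thus had a positive difference while those of Lpl, Cd36 and Fabp4 were negative.

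Timp4, an inhibitor of matrix proteases, read 9.42, 9.19 and 9.27 in heterozygous and 8.67, 8.80 and 8.86 in wild-type mice. It was 1.43-fold higher (difference 0.52 ± 0.07, limma adjusted p = 0.0115) and passed in all 6 fits with a mouse left out, as none of the 31 endothelial markers did. Kitl, the ligand of the KIT receptor, rose by 0.24 ± 0.05 (limma adjusted p = 0.0368) and passed in 1 of them.

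**Figure D4:**
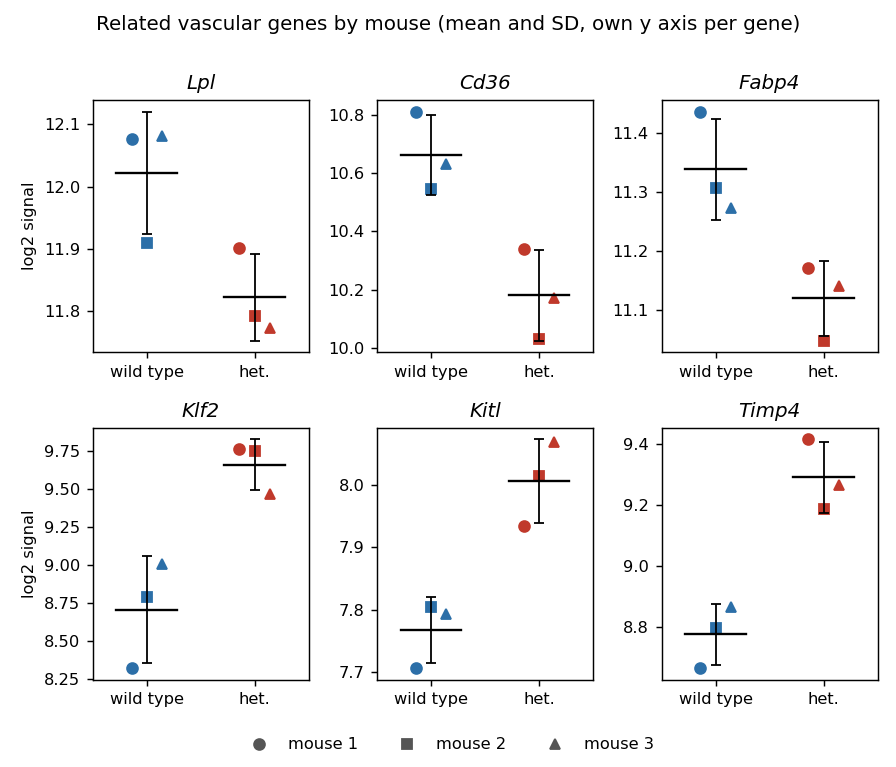
Log2 signal (y axis, a separate scale for each gene) of 6 related vascular genes in 3 wild-type (blue) and 3 heterozygous (red) mice; symbols mark the mouse number, lines the mean and error bars the SD. Lpl, Cd36 and Fabp4 are lower and Klf2, Kitl and Timp4 higher in every heterozygous mouse.

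Markers of the cells beside the endothelium were read from lists. Among 5 lymphatic genes tested Lyve1, the hyaluronan receptor of lymphatic endothelium and of some macrophages, rose by 0.30 ± 0.06 (limma adjusted p = 0.0352) and 4 did not pass, 1 of 5 called against a background of 3.11%. Lyve1 passed in 1 of the 6 fits with a mouse left out, with adjusted p up to 0.121. Mmrn1, a lymphatic matrix protein gene, differed by 0.15 ± 0.06 (limma adjusted p = 0.208), and Prox1, the defining lymphatic factor, was below the tested level at 6.18 to 6.20 in all mice. For comparison with the lists that follow, 3.11% of all tested probe sets passed and 2364 of 11544 had an unadjusted limma p under 0.05. Of 13 pericyte and smooth muscle genes 0 passed (limma, 4 with an unadjusted p under 0.05). The mean log2 signal of these genes was 8.25 to 8.50 in heterozygous and 8.28 to 8.43 in wild-type mice. Higd1b, a pericyte gene, at -0.16 ± 0.04 and Mcam, a gene shared with endothelium, at 0.18 ± 0.04 had the smallest p of these. Of 6 leukocyte genes 0 passed (limma; 0 with an unadjusted p under 0.05), with mean signals of 8.22 to 8.29 and 8.19 to 8.43, and the macrophage gene Adgre1 (-0.12) and the pan-leukocyte gene Ptprc (-0.19) had the smallest p. Of 9 fibroblast genes 0 passed (limma; 2 with an unadjusted p under 0.05, Col1a1 at 0.39 and Col1a2 at 0.61), with mean signals of 10.03 to 10.10 and 9.73 to 10.08. Of 3 red cell and platelet genes tested 0 passed (limma; 0 with an unadjusted p under 0.05), with mean signals of 8.17 to 8.51 and 8.24 to 8.45, and Alas2 (0.19) and Itga2b (-0.10) had the smallest p.

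Among 9 muscle fibre genes Myh7, the slow myosin heavy chain, rose by 3.00 ± 0.38 (limma adjusted p = 0.0104) and 8 did not pass. This was 1 of 9 called against a background of 3.11% of all tested probe sets. Myh7 passed in all 6 fits with a mouse left out, but not with a variance trend and robust variance estimates. Of the 8, Myh4, the fastest myosin heavy chain, was at -0.26. The mean signal of that list was 13.52 to 13.74 in heterozygous and 13.18 to 13.41 in wild-type mice, a separation made by Myh7. Without it the list had a mean signal of 13.75 to 13.92 in heterozygous and 13.84 to 13.92 in wild-type mice. Its 8 differences ran from -0.26 to 0.04 with a median of 0.00. Acta1, Pvalb, Tnnt3 and Ckm differed by 0.00 at the bright end of the scale, where normalization can hide a change. The median of 0.00 therefore does not show that fibre RNA was unchanged. Myh1, Myh2 and Myh4 differed by -0.18, -0.03 and -0.26, and Des by 0.04. Slow and fast muscle fibres are known to differ in their capillary supply, and the part of the fibre difference in the endothelial values was not tested.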

How the data were processed

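Per the labels' protocols, RNA of 6 quadriceps samples was isolated with Trizol and a Qiagen kit and labelled as biotinylated cRNA. The deposited values are log2 expression, 1 column per mouse; every column holds one and the same set of values (largest difference 0 after sorting), the mark of quantile normalization, so a change common to all transcripts is invisible. The labels name no summary software, background correction, probe definition or genome build. The number of arrays limits the precision of each value.

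The 64 control probe sets were left out, leaving 16492, of which the platform annotation names 15270 with 1 symbol. No 2 arrays were copies (25 to 56 identical values in any pair). The genotypes were compared by lmFit and eBayes of limma 3.58.1 (R 4.3.3) over the 11544 probe sets above the 30th percentile, with Benjamini-Hochberg adjustment. The p-values weigh each difference against the spread between these mice. In limma that spread is drawn towards a value shared by all tested probe sets. The fit was tested on simulated data whose noise was independent between probe sets and mice, unlike the deviations described next. Deviations of same-numbered mice from their genotype means correlated at 0.187, 0.234 and 0.129 and those of differently numbered mice at -0.168 to -0.039. Deviations within a genotype sum to 0 for each gene, so the negative values follow in part from the positive ones. The pairing comes from the numbers in the titles and these correlations alone, so the fit without the block is the main one.

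The members and lists were chosen with earlier results of these data known. All members are named; values in each mouse are given for those that passed, for the 2 with the smallest p in each role, and for further members chosen after their values were seen. In the other lists the calls and the 2 smallest p are named, with others chosen after their values were seen. Alternatives were no filter, the 50th percentile, cyclic loess, array weights, a variance trend with robust variance estimates, the replicate block and leaving out each mouse. Symbols, promoters and microRNAs come from RefSeq GRCm38.p6, of which 16 of the 32 members had a promoter listed.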

Additional observations from a re-analysis of the deposited data

How the results depend on the processing

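Of 31 endothelial genes, all kept the sign of their difference and their side of the threshold with no filter and with cyclic loess, as did the 26 that remained above the 50th percentile. With the replicate block 572 probe sets passed in place of 359 (4.95% against 3.11%), and 4 members rose and 4 fell in place of 2 and 1. Calls were then 1 of 27 VEGF, angiopoietin and Notch partners and 5 of 29 other endothelial genes. They were 6 of 17 arterial, venous and capillary genes and 1 of 9 fibroblast genes. The block changed no other call of a member. With array weights 4.18% of all tested probe sets passed. In that fit 3 members fell, 4 of 29 other endothelial genes were called and the difference of Robo4 was 0.0043 in place of -0.02. With a variance trend and robust variance estimates 3.39% of all tested probe sets passed. There 2 members fell, and 1 of 29 other endothelial genes and 0 of 9 muscle fibre genes were called. Leaving out 1 mouse gave 84 to 503 calls in all (0.728% to 4.36% of tested probe sets), with 0 to 3 of 31 members higher and 0 to 4 lower. In these fits 0 to 4 of 29 other endothelial genes and 1 to 4 of 17 arterial, venous and capillary genes were called. Among 5 lymphatic genes 0 to 1 were called, and among 6 leukocyte genes 0 to 1. The median difference then ran from -0.078 to -0.029 for arterial, venous and capillary genes and from -0.093 to 0.048 for pericyte and smooth muscle genes. Uncalled members whose sign turned were Pecam1 (-0.033 to 0.059), Esam (-0.018 to 0.074), Icam2 (-0.024 to 0.027), Eng (-0.063 to 0.011), Robo4 (-0.092 to 0.041), Vwf (-0.293 to 0.028) and Sox7 (-0.0037 to 0.056). The cause of these changes was not tested. Signal over background was not analysed here.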
